A study of Mus musculus with 12 samples.

Results

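The 45 genes described here encode proteins of the splicing machinery, which removes introns from newly made RNA, and proteins that coat that RNA in the nucleus. They were chosen by symbol: the SR proteins (Srsf), the heterogeneous nuclear ribonucleoproteins (Hnrnp), proteins of the small nuclear ribonucleoprotein particles (Snrp), subunits of splicing factors SF3a and SF3b (Sf3a, Sf3b), subunits of the U2 auxiliary factor and its relatives (U2af), and Son. Of 8251 genes with a probe set annotated to 1 symbol, these 45 met the rule, with 63 of 12422 probe sets. They comprise 16 hnRNP genes, 9 SR genes, 8 snRNP genes, 8 SF3 genes, 3 U2AF genes and Son. For the 15 genes with several probe sets, the one with the highest mean over the 12 arrays was taken. Snrp1c-ps2 is annotated as a pseudogene, and Snrpb2 was not above background on any of the 12 arrays.

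RNA came from structures microdissected from kidneys of wild-type Swiss Webster mouse embryos at E14.5, none of them treated and all of unrecorded sex, and was amplified in 2 rounds before hybridization to MG_U74Av2 arrays. Renal vesicles, in which the nephron first becomes epithelial, and S-shaped bodies, in which the future glomerulus and tubule can be told apart, were each gathered into pools of 20, with 3 arrays per structure. Collecting duct, the branching derivative of the ureteric bud and the reference of the study, was run unpooled on 3 arrays, and 3 further arrays each carried RNA of 1 S-shaped body. The samples are labelled as biological replicates without saying whether they came from different embryos, so each p-value here reflects only how much these samples differ among themselves, which may be technical. In such dissected pieces, fewer cells of a type and less RNA per cell cannot be told apart.

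Splicing factors act in a fixed order on each intron. The U1 particle, to which Snrpc belongs, binds the start of the intron. The U2 auxiliary factor, made of U2af2 and U2af1, binds the end of the intron and brings in the U2 particle, whose SF3a and SF3b complexes hold the branch point. The Sm proteins, among them Snrpb, Snrpd3, Snrpe and Snrpg, form the ring around the RNA of most of these particles. SR proteins mostly bind exons and favour their inclusion, whereas many hnRNP proteins bind introns or exons and often favour skipping, so that the balance of both groups sets many alternative splicing choices. Son is a large protein of nuclear speckles that helps the splicing of weak introns.

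The start regions of the genes are shown for 3 members. RefSeq windows on GRCm38.p6, from 250 bases before to 50 bases after a transcript start, were given for 39 of the 45 genes, in 50 windows. The 3 windows printed here are those of a member with a large rise (Snrpd3) and of members with large falls (U2af1, Srsf10) in S-shaped bodies, at chr10:75517792-75518091 on the plus strand, chr17:31658715-31659014 on the minus strand and chr4:135855821-135856120 on the plus strand. U2af1 has 2 overlapping windows, of which 1 is shown. Capitals mark the GC box, spelled GGGCGG, and the CCAAT box on either strand. In the Snrpd3 window a GC box and a CCAAT box share letters, and in the U2af1 window the CCAAT boxes of both strands overlap.
Snrpd3: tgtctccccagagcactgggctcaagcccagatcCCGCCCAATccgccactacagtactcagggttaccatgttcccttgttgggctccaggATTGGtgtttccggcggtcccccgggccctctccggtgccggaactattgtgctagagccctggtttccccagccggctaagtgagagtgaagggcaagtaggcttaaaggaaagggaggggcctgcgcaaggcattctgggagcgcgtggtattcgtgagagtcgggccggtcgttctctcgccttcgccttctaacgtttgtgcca
U2af1: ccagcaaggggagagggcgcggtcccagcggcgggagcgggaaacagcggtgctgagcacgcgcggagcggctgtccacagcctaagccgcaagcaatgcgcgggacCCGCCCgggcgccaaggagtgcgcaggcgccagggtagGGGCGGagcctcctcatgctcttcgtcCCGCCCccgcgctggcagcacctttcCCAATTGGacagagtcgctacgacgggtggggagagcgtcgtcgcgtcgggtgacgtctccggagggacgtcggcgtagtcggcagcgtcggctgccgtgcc
Srsf10: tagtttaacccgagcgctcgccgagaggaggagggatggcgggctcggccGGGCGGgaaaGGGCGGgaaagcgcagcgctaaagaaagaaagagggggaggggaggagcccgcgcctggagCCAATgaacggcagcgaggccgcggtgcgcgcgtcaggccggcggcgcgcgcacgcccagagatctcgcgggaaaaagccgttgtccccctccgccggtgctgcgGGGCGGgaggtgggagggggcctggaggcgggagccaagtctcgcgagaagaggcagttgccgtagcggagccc

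A GC box was present in 70% of the 50 windows, against 35.7% of all 32851 windows of this length, and a CCAAT box in 48% against 37.4%. The letters CCGGAAG, the core that ETS factors bind, were present in 34% against 8.86%, but in none of the 3 windows shown. A TATA box (TATAAA) was present in 10% against 13.6%. Both strands were searched. The windows of these genes also held more G and C in general, with a median of 61% against 52.7%, and more CG pairs, with a median of 26.5 against 7. The printed windows had 60.3%, 72% and 71.3% G and C. All 3 printed windows hold both a GC box and a CCAAT box.

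The deposited intensities were quantile normalized over the 12 arrays, so that every change below is relative to the other probe sets of the same arrays. Levels are log2 normalized intensities, and a difference of 1 is a doubling. A call is an adjusted p under 0.05 from limma with Benjamini-Hochberg adjustment over all 9316 probe sets tested in a fit. The mean deposited intensity per array lay between 21.4 and 363, lowest in single S-shaped bodies, and 48.3% to 59.7% of probe sets per array were above background. The number of arrays, 3 a group, limits the precision. The labels were borne out by the means of most marker lists, though not by each gene: the mean of 10 ureteric bud and collecting duct genes was 8.24 to 8.29 on the collecting duct arrays and 4.20 to 5.49 on the other 9, although Ret and Wnt11 were not above background in collecting duct. Of the 9 tested, 8 were called lower and 1 higher in renal vesicles than in collecting duct. The 8 early nephron genes averaged 7.63 to 7.76 in renal vesicles and 4.38 to 4.63 in collecting duct. In S-shaped bodies they averaged 5.41 to 5.62 (pooled) and 5.31 to 5.95 (single), nearer to collecting duct. Against collecting duct, 4 of the 8 were called higher and 1 lower in pooled ones. In single ones 3 of the 7 tested were called higher and 1 lower. Pax2 was not above background in any group, Wnt4 not in pooled or single S-shaped bodies, and Dll1 not in pooled ones. The 4 podocyte precursor genes with a probe set averaged 8.30 to 8.37 in pooled and 8.56 to 8.82 in single S-shaped bodies. They averaged 6.91 to 8.68 in renal vesicles and 3.55 to 3.68 in collecting duct, with Podxl not above background in any group.

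Other measures moved with the structures as well. The 9 endothelial markers averaged 8.66 to 9.34 on the S-shaped body arrays, pooled and single, 5.55 to 6.44 in renal vesicles and 3.54 to 3.72 in collecting duct, where 7 of the 9 (Cdh5, Kdr, Flt1, Tek, Tie1, Pecam1 and Cldn5) were not above background on any array. The 8 stromal markers averaged 7.86 to 8.41 in S-shaped bodies, 5.07 to 7.14 in renal vesicles and 3.05 to 3.28 in collecting duct. Of 21 cell cycle genes with a probe set, the mean was 8.58 to 8.88 in renal vesicles and 7.53 to 8.11 elsewhere, and the 21 immediate early and stress genes averaged 8.84 to 9.23 in collecting duct and 6.44 to 7.52 elsewhere. The actin control read 3′ over middle at a ratio of 3.67 ± 0.39 (SD, n = 3) in pooled S-shaped bodies and 8.25 ± 2.09 to 8.69 ± 1.5 in the other groups, single S-shaped bodies included. The other ratios set other groups apart. For GAPDH, 3′ over 5′ was 23.9 ± 3.82 in pooled S-shaped bodies and 10.3 ± 1.55 to 10.96 ± 3.23 in the other groups. For actin, 3′ over 5′ was 85.7 ± 8.64 in single S-shaped bodies and 38.3 ± 7.65 to 51.2 ± 33.4 in the other groups. GAPDH 3′ over middle was 5.89 ± 1.61 to 7.79 ± 1.67 in the 4 groups. The part of these measures in the results below was not tested.

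Against collecting duct, 12 of 44 tested genes were called higher in renal vesicles and 1 lower (27.3% and 2.27%), where 12.3% and 11.6% of all probe sets were called higher and lower. On the deposited scale, whose median over all probe sets is shifted by -1.39, the counts became 0 higher and 38 lower, and each of the 12 rises turned in sign. The background there was 2.52% higher and 75.5% lower. The median difference over the 44 genes was 0.26, against -0.02 over all probe sets, on quantile normalized values. On the deposited scale it was -1.08 against -1.39. Against renal vesicles, 6 genes were called higher in pooled S-shaped bodies and 18 lower (13.6% and 40.9%), where the background was 17.5% and 19.2%. The counts were 3 and 23 with each array scaled to its 75th percentile, with a background of 16.1% and 20.9%. They were 24 and 6 on the deposited scale (54.5% and 13.6%), with a background of 54.8% and 3.53%. In sign, 9 of the 24 called differences turned there. The median over the genes was -0.25 against -0.03 over all probe sets on quantile normalized values, and 0.69 against 0.94 on the deposited scale.

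Against collecting duct, 9 genes were called higher in pooled S-shaped bodies and 13 lower (20.5% and 29.5%), with a background of 18.2% and 20%. On the deposited scale 2 were called higher and 18 lower (4.55% and 40.9%), with a background of 10.4% and 31.6%. All probe sets have a median of -0.46 there. In single S-shaped bodies 8 were called higher and 10 lower than in collecting duct (18.2% and 22.7%), with a background of 16% and 17.9%. The counts were 10 and 7 with 75th percentile scaling, with a background of 17.2% and 16.6%. They were 0 and 42 on the deposited scale, with a background of 2.14% and 86.9% and a median of -2.56 over all probe sets. On quantile normalized values both shares in these 2 comparisons lay near the background. The comparisons share collecting duct or pooled S-shaped body arrays and are not independent of each other. The count in renal vesicles against collecting duct fell from 13 to 7 without renal vesicle replicate 2 and to 8 without collecting duct replicate 1, and that in pooled S-shaped bodies against collecting duct from 22 to 14 without pooled replicate 1.

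**Figure D1:**
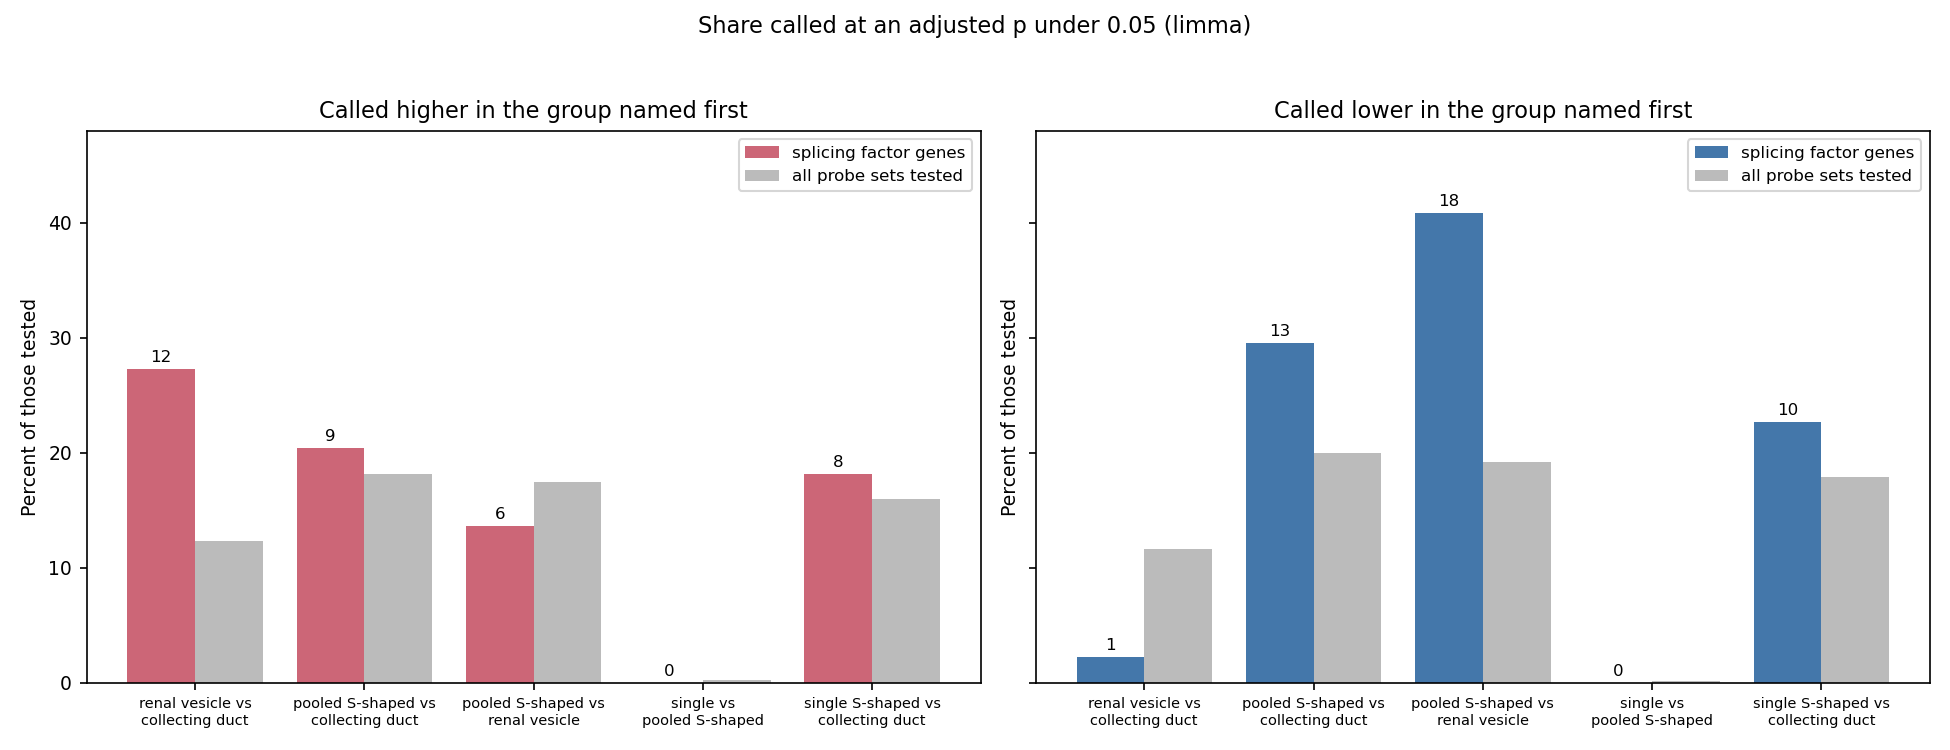
Percent of the splicing factor genes (coloured bars, with the number of genes above each) and of all probe sets tested (grey bars) called higher or lower in the group named first, for the 5 comparisons on quantile normalized values. The share called lower in pooled S-shaped bodies against renal vesicles was 40.9% of the genes and 19.2% of all probe sets. On the deposited scale 24 genes were called higher and 6 lower (54.5% and 13.6%), against 54.8% and 3.53% of all probe sets.

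**Figure D2:**
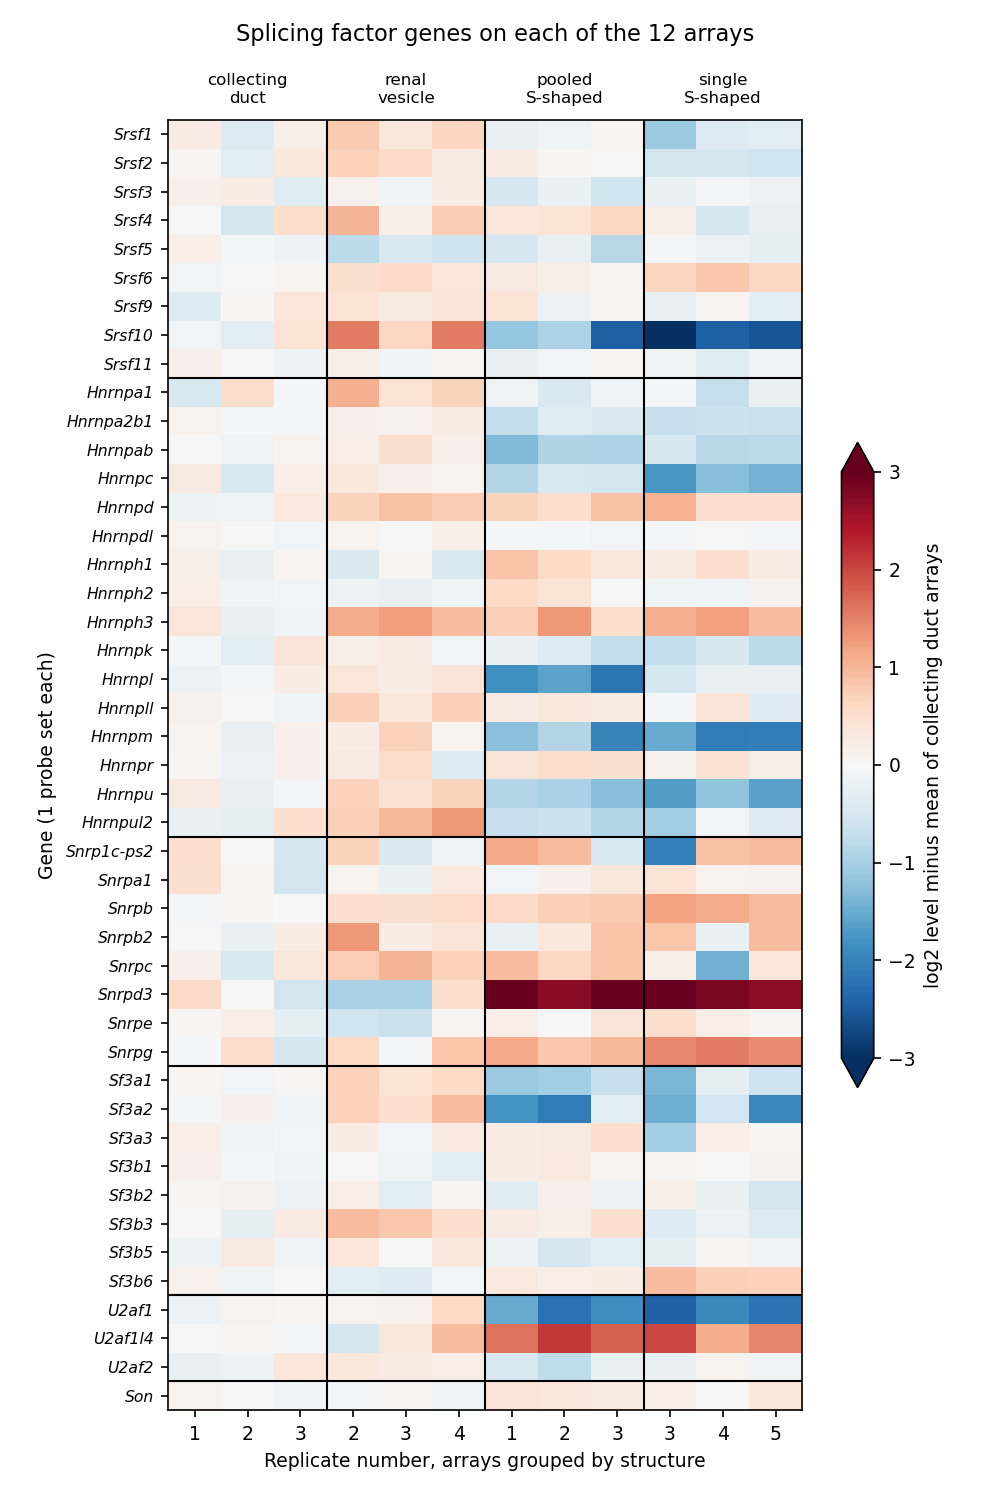
Each of the 45 genes (rows, grouped as SR, hnRNP, snRNP, SF3, U2AF and Son) on each of the 12 arrays (columns, by structure and replicate number). Colour gives the log2 level minus the gene's mean over the 3 collecting duct arrays, cut at 3 in either direction. Snrpd3 and U2af1l4 stand out as higher and Srsf10, Hnrnpm and U2af1 as lower on the S-shaped body arrays. Through the probe sets shown, 12 genes, Snrpb2 among them, had no call in any comparison.

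Among the proteins of the snRNP particles, the calls in pooled S-shaped bodies all went upward: 4 of 7 tested genes were called higher than in collecting duct (Snrpb, Snrpc, Snrpd3, Snrpg) and 2 higher than in renal vesicles (Snrpd3, Snrpe), with 0 lower. The share of all probe sets called higher was 18.2% and 17.5%. On the deposited scale, 1 of the 7 was called higher than in collecting duct and 7 higher than in renal vesicles, against 10.4% and 54.8% of all probe sets. The calls of Snrpb, Snrpc and Snrpg against collecting duct were lost there. Snrpd3, an Sm ring protein, was above background only in S-shaped bodies. Its levels were 4.40, 3.82 and 3.29 in collecting duct and 2.85, 2.85 and 4.37 in renal vesicles, all 6 not above background, and 6.97, 6.55 and 7.37 in pooled and 7.71, 6.66 and 6.51 in single S-shaped bodies, all 6 above it. The 6 S-shaped body arrays lay above all others. Since the dimmer groups give only a bound, set at the lowest signal counted as above background, Snrpd3 was at least 4.78-fold higher in pooled S-shaped bodies than in collecting duct (limma, adjusted p = 0.000279) and at least 5.33-fold higher than in renal vesicles (adjusted p = 0.000154). In single S-shaped bodies it was at least 4.80-fold higher than in collecting duct (adjusted p = 0.00111), a call lost on the deposited scale alone (0.134, in a range of 0.000174 to 0.134 over the alternatives).

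Snrpb, another Sm protein, rose in each nephron group over collecting duct. It was at 8.97, 9.07 and 9.04 in collecting duct, 9.53, 9.51 and 9.57 in renal vesicles, 9.60, 9.73 and 9.82 in pooled and 10.23, 10.15 and 9.97 in single S-shaped bodies. None of the 4 groups overlapped. The differences from collecting duct were 0.51 (SE 0.11, limma adjusted p = 0.00669), 0.69 (SE 0.11, adjusted p = 0.000565) and 1.09 (SE 0.14, adjusted p = 0.000629). Averaging its probe sets ended the calls in pooled and single S-shaped bodies, and on the deposited scale the direction turned in renal vesicles (-0.91) and single S-shaped bodies (-1.88).

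Snrpg was at 8.85, 9.42 and 8.37 in collecting duct, 9.48, 8.85 and 9.70 in renal vesicles, 10.03, 9.69 and 9.88 in pooled and 10.31, 10.44 and 10.31 in single S-shaped bodies. It was higher in pooled S-shaped bodies than in collecting duct by 0.98 (SE 0.27, limma adjusted p = 0.0138) and in single ones by 1.47 (SE 0.25, adjusted p = 0.00234), the latter turned on the deposited scale (-1.48). Without pooled replicate 1 or collecting duct replicate 3 the first of these was no longer called (adjusted p = 0.0507 and 0.0544). Snrpc, of the U1 particle, was higher than in collecting duct by 0.81 in both renal vesicles (SE 0.24, adjusted p = 0.0334) and pooled S-shaped bodies (SE 0.24, adjusted p = 0.0227), on levels of 5.37 to 6.20 in collecting duct, 6.54 to 6.87 in renal vesicles and 6.48 to 6.78 in pooled S-shaped bodies. The renal vesicle call of Snrpc was lost without any of renal vesicle replicates 2, 3 and 4 or collecting duct replicates 1 and 2 (adjusted p up to 0.117) and turned on the deposited scale (-0.70). The S-shaped body call was lost without pooled replicate 1 or 3 or collecting duct replicate 2 (up to 0.0841).

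Snrpe, also of the Sm ring, was higher in pooled S-shaped bodies than in renal vesicles by 0.61 (SE 0.20, limma adjusted p = 0.0336), although the groups overlapped (10.13 to 10.51 and 9.45 to 10.18). Leaving out renal vesicle replicate 2 or 3, or pooled replicate 1 or 3, ended this call (adjusted p up to 0.114), as did 75th percentile scaling (0.196). Snrpa1, of the U2 particle, stayed within 7.01 and 8.04 on the 12 arrays, with no call. The pseudogene Snrp1c-ps2 ranged from 5.05 to 8.23, widest within single S-shaped bodies (5.05, 7.97 and 8.03). Snrpb2 lay at 2.85 to 4.39 on all arrays and passed the filter on low values only in the fit of single against pooled S-shaped bodies.

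In pooled S-shaped bodies the U2 auxiliary factor subunits U2af1 and U2af2 were called lower than in both other groups, and their relative U2af1l4 higher. In renal vesicles against collecting duct none of the 3 was called. U2af2 had no call in single S-shaped bodies. U2af1, which reads the last bases of the intron, was at 6.87, 7.16 and 7.11 in collecting duct, 7.15, 7.16 and 7.65 in renal vesicles, 5.53, 4.81 and 5.18 in pooled and 4.62, 5.12 and 4.83 in single S-shaped bodies. All 6 S-shaped body arrays lay below the other 6, and 2 of the single ones (replicates 3 and 5) were not above background. It fell by 1.87 in pooled S-shaped bodies against collecting duct (SE 0.24, limma adjusted p = 0.0001225), by 2.15 against renal vesicles (SE 0.24, adjusted p = 7.66e-05), and by 2.19 in single S-shaped bodies against collecting duct (SE 0.29, adjusted p = 0.000738). These 3 calls were kept under each alternative run, with adjusted p up to 0.00118, 0.00503 and 0.00787.

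U2af1l4, which can stand in for U2af1, was not above background on any collecting duct array (3.35 to 3.43) or renal vesicle array (2.85 to 4.33), and was at 5.02, 5.50 and 5.16 in pooled and 5.40, 4.49 and 4.84 in single S-shaped bodies, of which only the first single one passed background. It was at least 1.44-fold higher in pooled S-shaped bodies than in collecting duct (limma, adjusted p = 0.00235) and at least 1.60-fold higher than in renal vesicles (adjusted p = 0.00592). In single S-shaped bodies it was called higher than in collecting duct (adjusted p = 0.0140). With only the first single array above background, no bound is given for this difference. The call was lost on leaving out any of collecting duct replicates 1, 2 and 3 (adjusted p = 0.0574, 0.0505 and 0.0549), and the difference turned to -0.040 on the deposited scale. U2af2, the large subunit that binds the pyrimidine tract, was at 10.11 to 10.70 in collecting duct, 10.54 to 10.64 in renal vesicles, 9.58 to 10.11 in pooled and 10.10 to 10.43 in single S-shaped bodies. It was lower in pooled S-shaped bodies than in renal vesicles by a log2 difference of -0.73 (SE 0.17, adjusted p = 0.00681), which turned to 0.17 on the deposited scale. Its call against collecting duct (-0.48, SE 0.17, adjusted p = 0.0488) was lost without any of renal vesicle replicates 2, 3 and 4, pooled replicates 1 and 2 or collecting duct replicates 2 and 3 (up to 0.183).

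**Figure D3:**
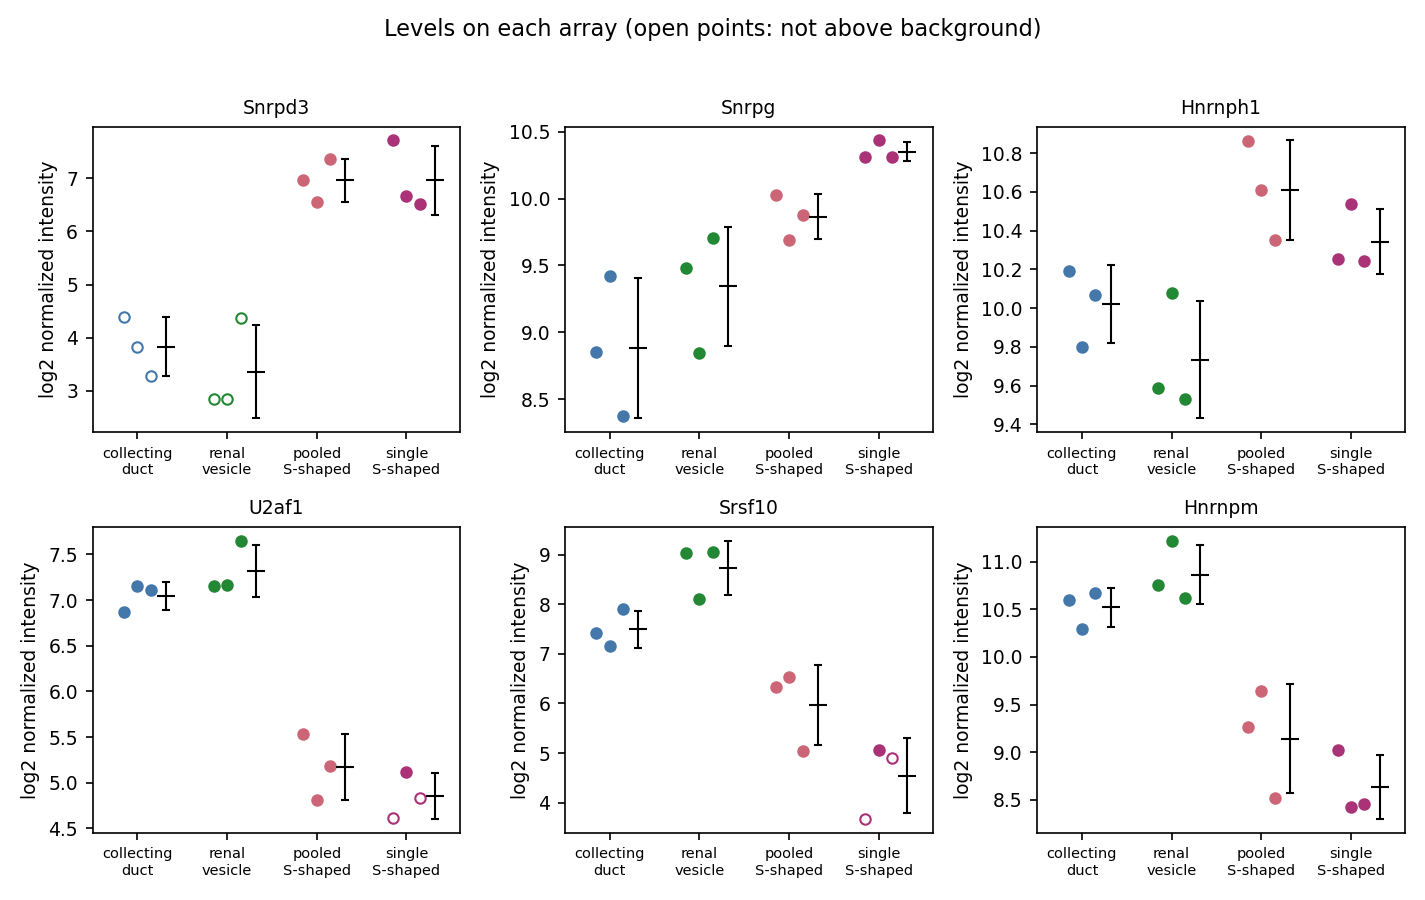
Log2 normalized intensity (vertical axis) of 6 genes on each array, by structure; points are arrays, open where the probe set was not above background, and the black mark and bar give the group mean and SD (n = 3). Snrpd3 was between 6.51 and 7.71 on the S-shaped body arrays and between 2.85 and 4.40 on the others, while U2af1 was between 4.62 and 5.53 on the former and between 6.87 and 7.65 on the latter.

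Of the 8 SF3 genes, 3 were called lower (Sf3a1, Sf3a2, Sf3b5) and 1 higher (Sf3b6) in pooled S-shaped bodies than in renal vesicles. Of all probe sets, 19.2% and 17.5% were called lower and higher. On the deposited scale the counts were 1 lower and 4 higher, against 3.53% and 54.8% of all probe sets. The fall of Sf3a1 was no longer called there. The rise of Sf3b6 was no longer called with 75th percentile scaling. Sf3a2 was at 8.83, 9.01 and 8.76 in collecting duct, 9.57, 9.37 and 9.79 in renal vesicles, 7.06, 6.78 and 8.54 in pooled and 7.41, 8.29 and 6.90 in single S-shaped bodies. The S-shaped body arrays lay below all others, with a wide spread among themselves. The log2 difference of pooled S-shaped bodies was -1.40 from collecting duct (SE 0.36, limma adjusted p = 0.0103) and -2.12 from renal vesicles (SE 0.36, adjusted p = 0.00104), and that of single ones from collecting duct was -1.33 (SE 0.33, adjusted p = 0.0142). With no filter on low values the calls against collecting duct were lost (adjusted p = 0.0541 at most for pooled ones). For single ones the call also went without collecting duct replicate 1 or 2 (0.0526 and 0.0595) and with the mean over both probe sets (0.483).

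Sf3a1 was at 7.38, 7.24 and 7.36 in collecting duct, 8.02, 7.74 and 7.91 in renal vesicles, 6.22, 6.32 and 6.64 in pooled and 5.95, 7.03 and 6.71 in single S-shaped bodies. It was lower in pooled S-shaped bodies than in collecting duct by a log2 difference of -0.93 (SE 0.18, limma adjusted p = 0.00171) and than in renal vesicles by -1.50 (SE 0.18, adjusted p = 0.000105). Its higher level in renal vesicles over collecting duct (0.57, SE 0.18, adjusted p = 0.0393) lost its call without any of renal vesicle replicates 2 and 4, pooled replicate 2 or collecting duct replicates 1, 2 and 3 (up to 0.116) and turned to -0.96 on the deposited scale. Sf3b3 was higher in renal vesicles (8.52 to 8.94) than in collecting duct (7.74 to 8.26), by 0.74 (SE 0.18, adjusted p = 0.0117), which turned to -0.70 on the deposited scale. Sf3b6, which touches the branch point adenosine, was at 8.50 to 8.76 in collecting duct, 8.23 to 8.53 in renal vesicles, 8.82 to 8.91 in pooled and 9.32 to 9.54 in single S-shaped bodies. It was higher in pooled S-shaped bodies than in renal vesicles by 0.51 (SE 0.14, adjusted p = 0.0140) and in single ones than in collecting duct by 0.78 (SE 0.15, adjusted p = 0.00533), the latter -2.34 on the deposited scale. Sf3b5 was lower in pooled S-shaped bodies than in renal vesicles by a log2 difference of -0.56 (SE 0.17, adjusted p = 0.0210), a call lost without renal vesicle replicate 2 or 4 or pooled replicate 2 or 3 (up to 0.0783) and turned to 0.42 on the deposited scale. Sf3a3, Sf3b1 and Sf3b2 had no call through the probe sets taken, on levels of 6.87 to 8.38, 8.54 to 9.19 and 8.67 to 9.42.

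Of the 9 SR genes, 4 were called lower and 0 higher in pooled S-shaped bodies than in renal vesicles (19.2% and 17.5% of all probe sets). Among these falls (Srsf1, Srsf3, Srsf6, Srsf10), only that of Srsf10 kept its call with each array left out in turn. The counts were 6 and 0 with 75th percentile scaling (20.9% and 16.1% of all probe sets). On the deposited scale they were 1 and 5 (3.53% and 54.8% of all probe sets). Srsf10 covered the widest range. Srsf10 encodes an SR protein that acts as a repressor of splicing when dephosphorylated. It was at 7.41, 7.16 and 7.90 in collecting duct, 9.04, 8.11 and 9.06 in renal vesicles, 6.34, 6.53 and 5.04 in pooled and 3.67, 5.05 and 4.91 in single S-shaped bodies, of which replicates 3 and 5 were not above background. The renal vesicle arrays lay above, and the S-shaped body arrays below, all 3 of collecting duct. The log2 difference of pooled S-shaped bodies was -1.52 from collecting duct (SE 0.39, limma adjusted p = 0.0105) and -2.77 from renal vesicles (SE 0.39, adjusted p = 0.000325), and that of single ones from collecting duct was -2.95 (SE 0.42, adjusted p = 0.00115). With no filter the first of these was no longer called (adjusted p = 0.0518, in a range of 0.000508 to 0.0518). The higher level in renal vesicles than in collecting duct (1.24, SE 0.39, adjusted p = 0.0412) was less firm: it lost its call without renal vesicle replicate 2 or 4 or collecting duct replicate 1 or 2 (0.123, 0.127, 0.108 and 0.134). The other Srsf10 probe set differed there by -0.09. On the deposited scale the first probe set's difference between renal vesicles and collecting duct turned to -0.19.

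Of the other SR genes, Srsf6 was at 10.36 to 10.49 in collecting duct, 10.80 to 11.02 in renal vesicles, 10.52 to 10.71 in pooled and 11.06 to 11.23 in single S-shaped bodies. It was higher than in collecting duct by 0.48 in renal vesicles (SE 0.10, limma adjusted p = 0.00577) and by 0.69 in single S-shaped bodies (SE 0.11, adjusted p = 0.00224), turned to -0.84 and -1.99 on the deposited scale. In pooled S-shaped bodies Srsf6 was called lower than in renal vesicles, by -0.25 to -0.35 with 1 array left out. That call was lost without renal vesicle replicate 2 or 3, pooled replicate 2 or 3 or collecting duct replicate 2 (adjusted p up to 0.120). Srsf5 was the 1 gene called lower in renal vesicles (10.01 to 10.31) than in collecting duct (10.63 to 10.98), with a log2 difference of -0.62 (SE 0.16, adjusted p = 0.0163), lost without renal vesicle replicate 2 or collecting duct replicate 1 (0.0586 and 0.0691) and with 75th percentile scaling. Srsf1, the founding SR protein, was at 7.57 to 8.24 in collecting duct, 8.32 to 8.78 in renal vesicles, 7.77 to 8.04 in pooled and 6.88 to 7.64 in single S-shaped bodies. It was lower in pooled S-shaped bodies than in renal vesicles by a log2 difference of -0.69 (SE 0.20, adjusted p = 0.0208), lost without renal vesicle replicate 2 or 4 or pooled replicate 1 or 2 (up to 0.0733) and turned to 0.33 on the deposited scale. Its other probe sets gave -1.29 and -1.07, both called, and -0.084, not called, on quantile normalized values. Against collecting duct, where the probe set taken had no call, the first of these was called lower in pooled (-1.07) and single S-shaped bodies (-1.55). The second was called lower in single ones (-1.20), and the third had no call. Srsf2 was higher in renal vesicles than in collecting duct by 0.51 (SE 0.16, adjusted p = 0.0435), with overlapping groups, and 7 of the 9 arrays left out in turn ended that call (up to 0.149), which turned to -0.60 on the deposited scale. In single S-shaped bodies Srsf2 was called lower than in collecting duct (-0.56). That call was lost on leaving out 5 of the 6 arrays in turn (up to 0.103) and with 75th percentile scaling. Its other probe set differed there by -0.46, with no call. Srsf3 was lower in pooled S-shaped bodies (10.21 to 10.61) than in renal vesicles (10.72 to 11.07) by a log2 difference of -0.53 (SE 0.17, adjusted p = 0.0297), lost without renal vesicle replicate 2 or 4 or pooled replicate 1 or 3 (up to 0.103) and turned to 0.34 on the deposited scale. Its other probe set differed there by 0.042 on the quantile normalized values, with no call. Srsf4, Srsf9 and Srsf11 had no call.

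The hnRNP genes held 9 of the 18 falls in pooled S-shaped bodies against renal vesicles: 9 of 16 were called lower and 1 higher (3 lower and 6 higher on the deposited scale), and against collecting duct 7 lower and 3 higher (10 and 0 on that scale). The shares of all probe sets called lower and higher were 19.2% and 17.5% against renal vesicles and 20% and 18.2% against collecting duct, so that the 3 rises lay near the background. These shares were 3.53% and 54.8%, and 31.6% and 10.4%, on the deposited scale. On the deposited scale Hnrnpu was no longer called lower against renal vesicles. Hnrnpm was at 10.60, 10.29 and 10.67 in collecting duct, 10.75, 11.22 and 10.62 in renal vesicles, 9.27, 9.64 and 8.51 in pooled and 9.02, 8.42 and 8.46 in single S-shaped bodies. The 6 S-shaped body arrays lay below the other 6. The log2 difference of pooled S-shaped bodies was -1.38 from collecting duct (SE 0.26, limma adjusted p = 0.00148) and -1.73 from renal vesicles (SE 0.26, adjusted p = 0.000433), and that of single ones from collecting duct was -1.89 (SE 0.20, adjusted p = 0.000262). Each of these calls was kept under the alternatives run, with adjusted p up to 0.0156, 0.0288 and 0.00517.

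Hnrnpu, a scaffold protein that also binds chromatin, was at 8.43, 7.92 and 8.09 in collecting duct, 8.84, 8.58 and 8.81 in renal vesicles, 7.27, 7.18 and 6.88 in pooled and 6.46, 6.95 and 6.52 in single S-shaped bodies. None of the renal vesicle, collecting duct and S-shaped body ranges overlapped. The log2 difference of pooled S-shaped bodies was -1.04 from collecting duct (SE 0.18, limma adjusted p = 0.000979) and -1.64 from renal vesicles (SE 0.18, adjusted p = 7.06e-05), and that of single ones from collecting duct was -1.50 (SE 0.24, adjusted p = 0.00186). Its other probe set gave -0.13, -0.35 and -0.62, with no call. Its higher level in renal vesicles than in collecting duct (0.60, SE 0.18, adjusted p = 0.0332) was lost without renal vesicle replicate 2 or 4 or collecting duct replicate 2 or 3 (up to 0.121) and turned to -0.85 on the deposited scale. Its relative Hnrnpul2 was at 7.40 to 8.21 in collecting duct, 8.40 to 9.00 in renal vesicles, 6.83 to 7.05 in pooled and 6.66 to 7.61 in single S-shaped bodies. It was higher in renal vesicles than in collecting duct by 1.00 (SE 0.23, adjusted p = 0.0105; -0.46 on the deposited scale) and lower in pooled S-shaped bodies than in renal vesicles by a log2 difference of -1.73 (SE 0.23, adjusted p = 0.000243).

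Hnrnpl, which binds CA-rich RNA, was at 5.51, 5.65 and 5.90 in collecting duct, 6.04, 5.91 and 6.08 in renal vesicles, 3.84, 4.09 and 3.49 in pooled and 5.17, 5.47 and 5.46 in single S-shaped bodies. None of the pooled arrays was above background, while single replicates 4 and 5 were. It was at least 2.03-fold lower in pooled S-shaped bodies than in collecting duct (limma, adjusted p = 0.000158) and at least 2.54-fold lower than in renal vesicles (adjusted p = 8.31e-05). Single S-shaped bodies differed from collecting duct by -0.32 (SE 0.30, adjusted p = 0.448), with no call, and lay above all 3 pooled arrays without passing the test (adjusted p = 0.0906).

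Hnrnpab, Hnrnpc and Hnrnpk were also called lower. Hnrnpab was at 7.32 to 7.51 in collecting duct, 7.57 to 7.89 in renal vesicles, 6.09 to 6.52 in pooled and 6.58 to 6.90 in single S-shaped bodies, with a log2 difference of pooled ones of -1.05 from collecting duct and -1.32 from renal vesicles, the latter not called on the deposited scale (adjusted p = 0.514). Its other probe set differed by 0.43 from collecting duct, with no call, and the mean over both gave -0.31 (adjusted p = 0.363). In single ones its difference from collecting duct was -0.71 (SE 0.22, limma adjusted p = 0.0353), lost without collecting duct replicate 1, 2 or 3 or single replicate 4 or 5 (up to 0.126) and with the mean over its probe sets (-0.24, adjusted p = 0.557). Hnrnpc, which packages new transcripts, was at 6.50 to 7.26 in collecting duct, 7.08 to 7.29 in renal vesicles, 6.09 to 6.49 in pooled and 5.24 to 5.70 in single S-shaped bodies, a log2 difference from collecting duct of -1.47 in single ones (SE 0.31, adjusted p = 0.00698). In pooled ones its difference was -0.64 from collecting duct (SE 0.23, adjusted p = 0.0490), lost on leaving out 8 of the 9 arrays in turn (up to 0.171), and -0.83 from renal vesicles (SE 0.23, adjusted p = 0.0159), lost without pooled replicate 1 (0.0628) and turned to 0.28 on the deposited scale. Hnrnpk, a poly(C) binder, differed in single S-shaped bodies from collecting duct by -0.68 (SE 0.20, adjusted p = 0.0295), lost without collecting duct replicate 1 or 3 or single replicate 3 or 5 (up to 0.0954) and with 75th percentile scaling (0.0504).

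Hnrnpd and Hnrnph3 were higher in the 3 nephron groups than in collecting duct, but both turned on the deposited scale in renal vesicles (-0.64 and -0.41) and in single S-shaped bodies (-2.33 and -1.98). In pooled ones neither was called on that scale (adjusted p = 0.332 and 0.337). Hnrnpd, also known as AUF1 and tied to decay of AU-rich RNA, was at 9.00, 9.02 and 9.43 in collecting duct, 9.82, 10.03 and 9.90 in renal vesicles, 9.82, 9.69 and 10.03 in pooled and 10.18, 9.66 and 9.65 in single S-shaped bodies. The collecting duct arrays lay below all others. The differences from collecting duct were 0.77 (SE 0.15, limma adjusted p = 0.00360), 0.70 (SE 0.15, adjusted p = 0.00350) and 0.68 (SE 0.20, adjusted p = 0.0302), the last lost without collecting duct replicate 1 or 2 or single replicate 3 (up to 0.115). Hnrnph3 was at 6.85 to 7.45 in collecting duct, 8.02 to 8.33 in renal vesicles, 7.61 to 8.38 in pooled and 8.02 to 8.32 in single S-shaped bodies, higher by 1.10 (SE 0.23, adjusted p = 0.00568), 0.85 (SE 0.23, adjusted p = 0.0134) and 1.08 (SE 0.23, adjusted p = 0.00722). The call in pooled ones was lost without pooled replicate 2 or collecting duct replicate 2 (0.0544 and 0.0532).

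Hnrnph1, which binds runs of G, was at 10.19, 9.80 and 10.07 in collecting duct, 9.59, 10.08 and 9.53 in renal vesicles, 10.87, 10.61 and 10.35 in pooled and 10.25, 10.54 and 10.24 in single S-shaped bodies. The pooled arrays lay above all of renal vesicle and collecting duct. It was higher in pooled S-shaped bodies than in renal vesicles by 0.88 (SE 0.18, limma adjusted p = 0.00311). Its difference from collecting duct (0.59, SE 0.18, adjusted p = 0.0241) lost its call without pooled replicate 1 or 2 or collecting duct replicate 2 or 3 (up to 0.10) and on the deposited scale (0.664). Hnrnpll was higher in renal vesicles (9.41 to 9.82) than in collecting duct (8.98 to 9.23) by 0.58 (SE 0.14, adjusted p = 0.0123), which turned to -0.84 on the deposited scale. Hnrnpa1 was lower in pooled S-shaped bodies than in renal vesicles by a log2 difference of -0.95 (SE 0.25, adjusted p = 0.0132), lost without renal vesicle replicate 2 or pooled replicate 2 (0.0551 and 0.0540) and turned to 0.039 on the deposited scale. Hnrnpdl, Hnrnph2 and Hnrnpr had no call through the probe sets taken, on levels of 11.21 to 11.46, 6.49 to 7.32 and 9.06 to 10.01. The other probe sets of Hnrnpdl were called in opposite directions in pooled S-shaped bodies against renal vesicles (1.21 and -0.55). The latter probe set was also called higher in renal vesicles than in collecting duct (0.53).

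Son and Sf3b1 gave different readings through their 2 probe sets. The probe set of Son with the higher mean was at 10.11 to 10.32 in collecting duct, 10.08 to 10.24 in renal vesicles, 10.47 to 10.60 in pooled and 10.20 to 10.54 in single S-shaped bodies. Pooled S-shaped bodies differed by 0.33 from collecting duct (SE 0.10, limma adjusted p = 0.0271) and by 0.38 from renal vesicles (SE 0.10, adjusted p = 0.0144). Without pooled replicate 1 both calls were lost (0.0943 and 0.0570), and others left out ended 1 of them: pooled replicate 2 (0.0667), collecting duct replicate 2 (0.0606) or 3 (0.0932), and renal vesicle replicate 4 (0.0508). With 75th percentile scaling both were lost as well, and the difference from renal vesicles was 0.12 (adjusted p = 0.476). On the deposited scale the difference from collecting duct turned to -0.13. The other Son probe set was at 5.21, 5.65 and 5.15 in collecting duct, 5.27, 5.29 and 5.77 in renal vesicles, 9.37, 9.52 and 9.67 in pooled and 9.45, 9.04 and 9.42 in single S-shaped bodies. All 6 S-shaped body arrays lay more than 3 above all others. The difference was 4.18 from collecting duct (SE 0.22, adjusted p = 2.18e-07) and 4.08 from renal vesicles (SE 0.22, adjusted p = 2.29e-06) in pooled ones, and 3.97 from collecting duct (SE 0.24, adjusted p = 1.48e-05) in single ones.

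Sf3b1, the SF3b subunit that clamps the branch point, showed the same division. Its probe set with the higher mean was at 8.77 to 9.04 in collecting duct, 8.54 to 8.89 in renal vesicles, 8.97 to 9.19 in pooled and 8.88 to 9.00 in single S-shaped bodies, with differences of 0.20, 0.36 and 0.07 and no call. The other was at 4.84, 5.0 and 4.46 in collecting duct, 4.96, 4.74 and 4.52 in renal vesicles, 8.71, 8.23 and 8.32 in pooled and 9.33, 8.96 and 8.54 in single S-shaped bodies. Pooled S-shaped bodies differed by 3.66 from collecting duct (SE 0.24, limma adjusted p = 1.07e-06) and by 3.68 from renal vesicles (SE 0.24, adjusted p = 4.55e-06), and single ones by 4.18 from collecting duct (SE 0.29, adjusted p = 3.01e-05). Over all genes with a second tested probe set, 65 of 1534 pairs (4.24%) differed by more than 3 in pooled S-shaped bodies against collecting duct and 16 (1.04%) in renal vesicles against collecting duct. The array does not say which transcript forms each probe set reads.

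Other genes with several probe sets differed by less. Srsf10 fell through both: the probe set with the lower mean was at 7.12 to 7.99 in collecting duct, 7.42 to 7.70 in renal vesicles, 5.0 to 5.37 in pooled and 2.85 to 4.17 in single S-shaped bodies, and pooled ones differed by -2.45 from collecting duct and by -2.36 from renal vesicles. In single ones it was not above background and at least 6.13-fold lower than in collecting duct (limma, adjusted p = 0.000297). Hnrnpa2b1 was called in opposite directions in pooled S-shaped bodies against renal vesicles: the probe set with the higher mean differed by -0.68 (SE 0.11, adjusted p = 0.000632; 0.055 on the deposited scale) and the other by 0.40 (SE 0.13, adjusted p = 0.0311). Against collecting duct the first was called lower in pooled (-0.52) and single S-shaped bodies (-0.67). The other differed by 0.17 and 0.089, with no call. Both calls of the first were lost with 75th percentile scaling (adjusted p = 0.0588 and 0.743). For Hnrnpul2 the probe set with the lower mean was lower in pooled S-shaped bodies than in collecting duct by a log2 difference of -2.54, where the other gave -0.73, and in renal vesicles against collecting duct the 2 probe sets differed in sign (-0.51 and 1.00).

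**Figure D4:**
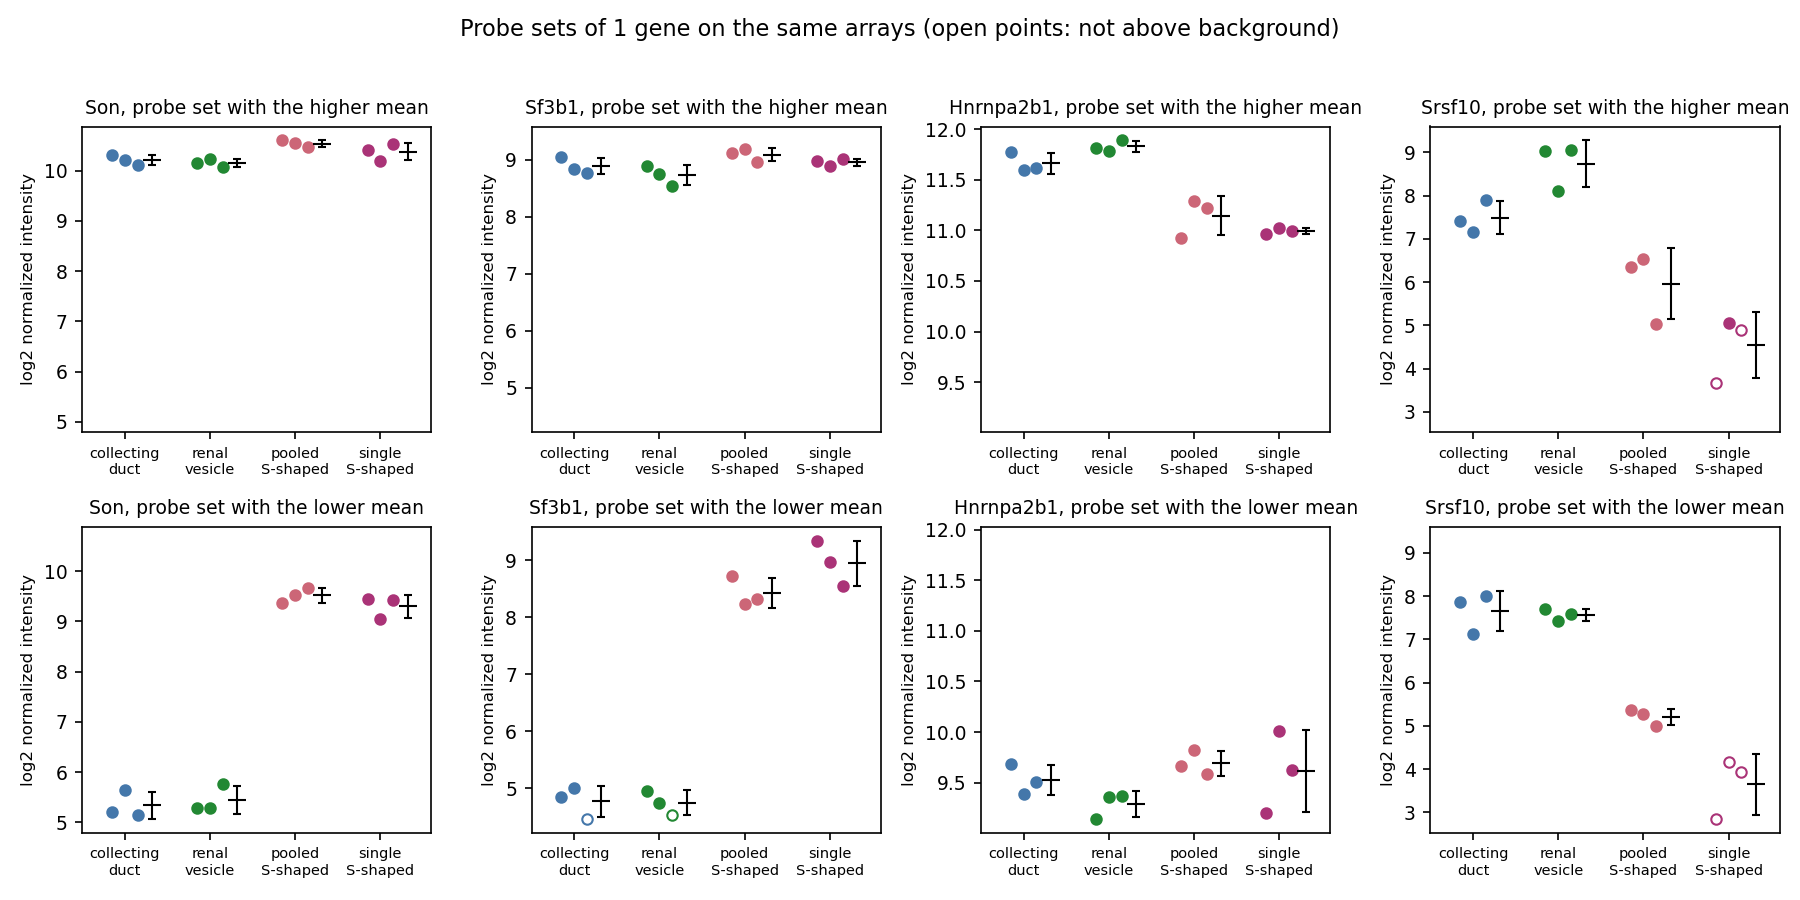
Log2 normalized intensity (vertical axis, shared within a gene) of 2 probe sets of each of Son, Sf3b1, Hnrnpa2b1 and Srsf10 on each array, by structure; points are arrays, open where not above background, and the black mark and bar give the group mean and SD (n = 3). The lower Son panel runs from 5.15 to 5.77 in collecting duct and renal vesicles and from 9.04 to 9.67 in S-shaped bodies, whereas the upper one stays within 10.08 and 10.60.

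Single and pooled S-shaped bodies showed no called difference among the 45 genes, all tested in this fit (limma, 0 higher and 0 lower, with a background of 0.247% and 0.15% called higher and lower). At an unadjusted p under 0.05 there were 11 of 45 genes and 1654 of 9316 probe sets. With 75th percentile scaling 2 genes were called, with all 12 arrays in 1 fit 3, and on the deposited scale 43, all lower in single ones, where the median of all probe sets is -2.20. The background, higher and lower, was 1.22% and 0.343%, 2.21% and 2.34%, and 0.225% and 89.4% in these settings. Srsf2 was at 11.16, 11.21 and 11.14 in single and 11.95, 11.76 and 11.72 in pooled S-shaped bodies, a log2 difference of -0.64 (SE 0.10, adjusted p = 0.0550). Srsf6 lay higher in single ones by 0.51 (SE 0.11, adjusted p = 0.0881), with no overlap. Snrpd3 (0.00, SE 0.37) and U2af1 (-0.32, SE 0.36) had wide errors, so that these arrays do not show them to be equal.

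The wider splicing machinery was followed through a list of 153 genes, of which 105 had a probe set and 101 were tested. Against collecting duct, 19 were called higher and 2 lower in renal vesicles and 19 higher and 20 lower in pooled S-shaped bodies. Against renal vesicles, 16 were called higher and 31 lower in pooled S-shaped bodies, and in single ones 16 higher and 16 lower than in collecting duct. Against collecting duct, the background of 18.2% and 20% (pooled) and of 16% and 17.9% (single S-shaped bodies) lay near these list shares. It was 12.3% and 11.6% in renal vesicles against collecting duct and 17.5% and 19.2% in pooled S-shaped bodies against renal vesicles. On the deposited scale, with 100 tested, the list counts became 0 and 87, 5 and 35, 54 and 4, and 1 and 98. The background there was 2.52% and 75.5%, 10.4% and 31.6%, 54.8% and 3.53%, and 2.14% and 86.9%. In pooled S-shaped bodies against renal vesicles the list thus lay near the background on that scale. Esrp1, the epithelial splicing regulator, averaged 9.62 in collecting duct and was at least 31.0-fold lower in pooled (limma, adjusted p = 3.70e-05) and at least 23.9-fold lower in single S-shaped bodies (adjusted p = 3.55e-06). Its log2 difference in renal vesicles was -5.58 (SE 0.62, adjusted p = 7.86e-05). Its level there was 4.04 ± 1.62 (SD), with only 1 renal vesicle array above background. Lsm7, an Sm-like protein, was at least 3.16-fold higher in pooled S-shaped bodies than in collecting duct (adjusted p = 0.000117) and at least 3.51-fold higher than in renal vesicles (adjusted p = 0.000317), not being above background in either.

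Raly, an hnRNP C relative outside the symbol rule, was lower in pooled S-shaped bodies by a log2 difference of -1.80 from collecting duct (SE 0.19, limma adjusted p = 3.72e-05) and -2.59 from renal vesicles (SE 0.19, adjusted p = 7.79e-06). Tia1, which favours weak splice sites, was higher there by 1.52 (SE 0.23, adjusted p = 0.000344) and 1.88 (SE 0.23, adjusted p = 0.000115). The helicase Ddx3x differed by 2.13 and 1.30 through its probe set with the highest mean and by -1.88 and -1.54 through another. In renal vesicles Rnps1, of the exon junction complex, was higher than in collecting duct by 1.35 (SE 0.23, adjusted p = 0.00178), the RNA-stabilizing Elavl1 by 1.15 (SE 0.19, adjusted p = 0.00120) and Khdrbs1 by 1.06 (SE 0.17, adjusted p = 0.00132). These 3 turned to -0.15, -0.28 and -0.38 on the deposited scale, with no call.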

How the data were processed

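Per the labels' protocols, TRIzol-extracted RNA was amplified and put on MG_U74Av2 arrays. The deposited table holds 1 linear intensity per probe set and array, some below 0, for 12422 probe sets besides 66 controls. GCOS is named in the submitters' processing notes, and neither summary nor scaling is given in the sources used here. From the deposited intensities, the 12 arrays were quantile normalized without controls, floored at 0, and log2 was taken after adding 7.22, which is 25% of the median of all values and shrinks the changes of dim probe sets. Those whose mean over a fit's arrays lay in the lowest 25% were left out. A probe set was above background where its deposited value exceeded the size of that array's 5th percentile, which is negative. Where no array of the dimmer group passed it, a bound ("at least N-fold") stands in place of the fitted fold, from the brighter group's mean over the higher of that limit and the dim probe set's own level, array by array. No bound is given for U2af1l4 in single S-shaped bodies, which were not all above background.

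The test was that of limma 3.58.1 under R 4.3.3 (lmFit, eBayes with a mean-variance trend, two-sided). One fit held the 9 arrays of collecting duct, renal vesicles and pooled S-shaped bodies, and single S-shaped bodies against each of pooled ones and collecting duct on 6. The fit was tested on simulated data. Symbols came from the platform annotation, with 10833 probe sets of 1 symbol, 396 of several and 1193 of none, and positions from RefSeq. The members and lists were chosen with earlier results of these data known. Named were up to 8 called members per direction and comparison by size of change, members with differing probe sets or below background, Srsf1 to Srsf3, and up to 4 genes per direction of the wider list, of which a part is printed; other members named with values were added as an account of all of them. Alternatives were other pseudocounts, scalings, filters, fits, array weights, the mean over probe sets, each array left out and the replicate number as a block. Same-numbered arrays of different groups did not deviate together (correlations of -0.089 to 0.049), so they were not treated as pairs.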

Additional observations from a re-analysis of the deposited data

How the results depend on the processing

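The deposited scale moved 3 counts by over 1.5 times: 38 of the genes were called in renal vesicles against collecting duct (13 otherwise), 43 in single against pooled S-shaped bodies (0 otherwise) and, of single S-shaped bodies against collecting duct, 42 (18 otherwise), all lower. Of all probe sets, 75.5%, 89.4% and 86.9% were called lower in these 3. The deposited scale turned the sign of 12 of 13 called differences in renal vesicles and 1 of 22 in pooled S-shaped bodies against collecting duct, 9 of 24 in pooled S-shaped bodies against renal vesicles and 7 of 18 in single ones against collecting duct. With 75th percentile scaling, 1 of the 18 called differences in single S-shaped bodies against collecting duct turned as well. Of the differences named by size of change, 15 turned on the deposited scale. In renal vesicles against collecting duct these were Srsf10 (-0.19), Hnrnph3 (-0.41), Hnrnpul2 (-0.46), Snrpc (-0.70), Hnrnpd (-0.64), Sf3b3 (-0.70), Hnrnpu (-0.85) and Hnrnpll (-0.84). In single S-shaped bodies against collecting duct these were U2af1l4 (-0.040), Snrpg (-1.48), Snrpb (-1.88), Hnrnph3 (-1.98), Sf3b6 (-2.34), Srsf6 (-1.99) and Hnrnpd (-2.33). In these comparisons all probe sets shifted by -1.39 and -2.56 at the median on that scale. The part of this shift in the turns was not tested. The count in renal vesicles against collecting duct was 8 with no mean-variance trend and 8 with all 12 arrays in 1 fit, and that in pooled S-shaped bodies against collecting duct was 14 with no filter. In single against pooled S-shaped bodies 75th percentile scaling gave 2 and all 12 arrays in 1 fit gave 3. The cause of these was not tested. Leaving out 1 array at a time gave 7 to 13 calls in renal vesicles against collecting duct, 14 to 21 in pooled S-shaped bodies against collecting duct, 18 to 25 in pooled S-shaped bodies against renal vesicles, 12 to 17 in single S-shaped bodies against that duct, and 0 in single against pooled.

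The replicate numbers are only names here. With the replicate block, 5 genes were called in renal vesicles against collecting duct, 22 in pooled S-shaped bodies against collecting duct and 18 against renal vesicles. No block was possible for single S-shaped bodies, which share 1 number with either other group. Over the differences named by size and all alternatives, 949 results kept direction and call, 106 kept the direction and lost the call, and 15 reversed. With 3 arrays a group, dim signal limits what can be said of Snrpb2, Snrpd3, U2af1l4 and Hnrnpl.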
